A study of Mus musculus with 9 samples.

Results

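The galectin family in this series is 5 genes, taken by their gene names: the galectin genes Lgals1, Lgals3, Lgals8 and Lgals9, and Lgals3bp, which encodes the galectin-3-binding protein. They are 5 of the 34745 genes in the deposited table, and all 5 passed the count filter that left 16494 genes for testing. The RNA came from spinal cord tissue of mice with a complete transection of the cord at T9. There were 3 groups of 3 libraries each: day 0 after injury (titled N, taken as day 0 because the series names days 0, 3 and 21), day 3 and day 21. The sources used here give no strain, age, sham surgery, length of cord taken or position relative to the lesion, nor whether each library is from another animal. The p-values therefore reflect the scatter of these samples alone, part or all of which could be technical.

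Galectins are small lectins that bind β-galactosides, chiefly the lactosamine units of branched N-glycans on glycoproteins. They are made in the cytosol without a signal peptide, leave the cell by a non-classical route and crosslink receptors at the cell surface. Inside the cell some of them bind glycans exposed on damaged endosomes and lysosomes. In the injured nervous system galectin-1 is known from reactive astrocytes, fibroblasts, Schwann cells and sensory neurons, and galectin-3 from activated microglia and macrophages.

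Total gene counts were 14299679 to 24022923 per library, so each member rested on 37 to 6967 counts in a library. All listed markers of neurons, oligodendrocytes and astrocytes had counts in every group of this spinal cord RNA. Library pairs correlated at 0.985 to 0.989 in log2 CPM (counts scaled to library size) at day 0, at 0.987 to 0.988 at day 3 and at 0.935 to 0.987 at day 21. At day 21 replicate 2 stood apart, with a sample weight of 0.0583 against 1.02 and 1.91 for the other day 21 libraries. Of the members Lgals1 and Lgals3 were 2.25 and 2.06 times as high in that library as in the mean of replicates 1 and 3, while Lgals3bp, Lgals8 and Lgals9 were at 1.14, 0.814 and 1.19 times. Day 0 replicate 1 also had a low weight of 0.354, against 1.75 and 2.03 for the other day 0 libraries.

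Galectin transcripts rose early and partly came down again, except for Lgals3bp, which kept rising, and Lgals8, for which no change was called. At day 3 against day 0, 4 of 5 members were called higher by edgeR's quasi-likelihood test (Benjamini-Hochberg adjusted p under 0.05 over all genes tested) and none lower. Across all genes 24.8% were called higher in that comparison and 44.3% in either direction. At day 21 against day 0, 3 of 5 were called higher and none lower, where 17.9% of all genes were called higher and 29.2% in either direction. At day 21 against day 3, 3 of 5 were called lower and 1 higher, while 16.1% of all genes were called lower, 11.7% higher and 27.8% in either direction. Each of these member counts was as given without day 21 replicate 2 and without day 0 replicate 1. The counts over all genes were less stable. Between day 21 and day 3, 3941 genes were higher and 4305 lower without day 21 replicate 2, in place of 1928 and 2657, and 1006, 1066 and 1038 were higher without day 3 replicate 1, 2 or 3. Between day 21 and day 0, 1864 genes were lower, or 3748 without day 21 replicate 2 and 1072 and 1011 without day 0 replicate 2 or 3. Between day 3 and day 0, 3217 genes were lower, or 4891 without day 21 replicate 2. Both injured groups were set against the same day 0 libraries.

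**Figure D1:**
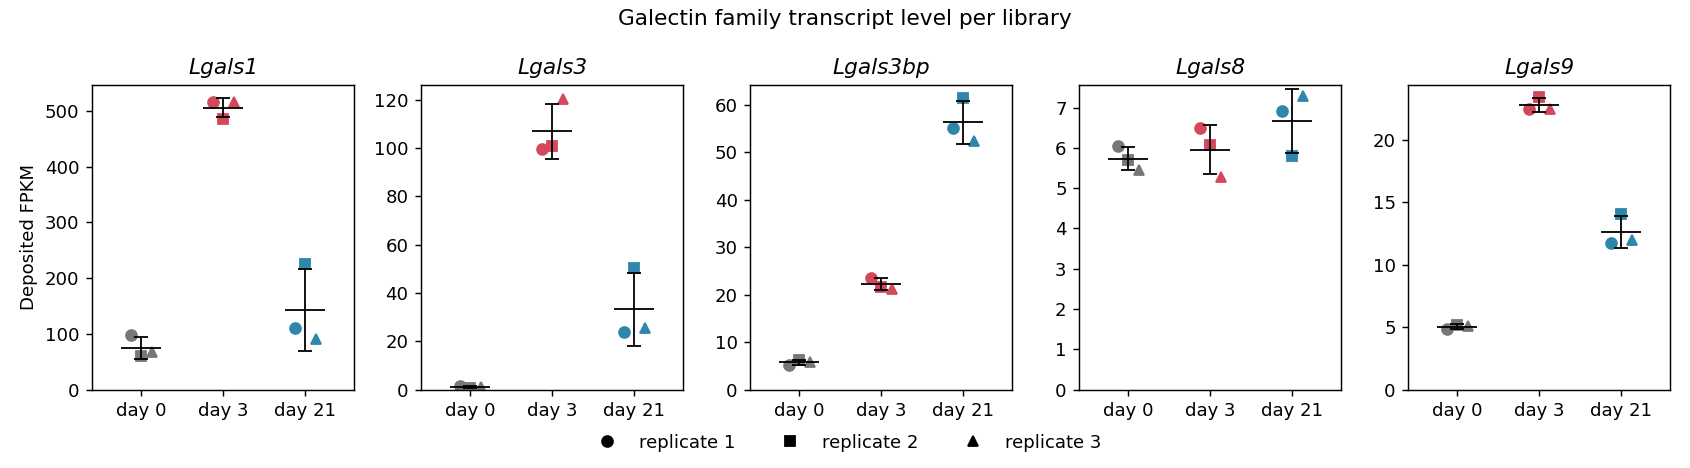
Deposited FPKM (fragments per kilobase of transcript, scaled to library size) of each member in every library; symbols give the replicate, the bar the mean and the whiskers the SD of 3 libraries, and each panel has its own linear axis from 0. Lgals1, Lgals3 and Lgals9 peak at day 3, Lgals3bp is highest at day 21, and the Lgals8 groups overlap.

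Lgals1 encodes galectin-1, a prototype galectin with a single carbohydrate recognition domain that acts as a dimer (ENSMUSG00000068220, chromosome 15, 78926725 to 78930465, plus strand, build GRCm38). It was the most abundant member on every day. Its level was 97.7, 60.8 and 66.7 FPKM at day 0, 516, 486 and 516 FPKM at day 3, and 110, 226 and 91.5 FPKM at day 21. All day 3 libraries lay above all others, and the day 21 range overlapped the day 0 range through day 21 replicate 3 and day 0 replicate 1. It averaged 506 ± 17.3 FPKM at day 3 against 75.1 ± 19.8 FPKM at day 0 (SD, n = 3 each), a log2 fold change of 2.70 ± 0.32 (SE, edgeR adjusted p 0.000137), or 6.52-fold with a 95% interval of 3.95 to 10.8.

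At day 21 Lgals1 averaged 143 ± 73.0 FPKM, and its log2 fold change of 0.79 ± 0.304 against day 0 missed the threshold (edgeR adjusted p 0.0809, 95% interval of the log2 fold change 0.11 to 1.48). That value rests on day 21 replicate 2: without it the log2 fold change was 0.32 (edgeR adjusted p 0.171). Without day 21 replicate 3 it was 1.02 and passed (edgeR adjusted p 0.0295), and it also passed with DESeq2, with sample weights and with a filter of 5 FPKM (adjusted p over all alternatives 0.00569 to 0.225). Set against day 3, Lgals1 fell by 1.91 on the log2 scale at day 21 (SE 0.31, edgeR adjusted p 0.00228), with groups that did not overlap.

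The Lgals1 locus has 2 annotated processed copies, and reads of near-identical copies may be split in counting. Lgals1-ps2 held 1 to 17 counts in a library, while Lgals1 held 767 to 6967, and Lgals1-ps1 held none. The exons of Lgals1 shared no base with another annotated gene.

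Lgals3 encodes galectin-3, the chimera-type galectin whose repetitive amino-terminal tail lets it oligomerise on glycoprotein ligands (ENSMUSG00000050335, chromosome 14, 47367751 to 47386160, plus strand). It had the largest change of the family. Lgals3 was at 1.39, 0.842 and 1.02 FPKM at day 0, on 93, 37 and 50 counts. At day 3 it was at 99.5, 101 and 120 FPKM, on 4465, 5043 and 4992 counts, and at day 21 at 23.8, 50.5 and 25.3 FPKM. No library of any day overlapped in level with a library of another day.

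The mean of Lgals3 was 107 ± 11.5 FPKM at day 3 and 1.08 ± 0.279 FPKM at day 0 (SD, n = 3 each). The log2 fold change was 6.56 ± 0.352 (SE, edgeR adjusted p 1.08e-06), or 94.2-fold with a 95% interval of 54.2 to 164, and 99.5% of tested genes had a lower log2 fold change. At day 21 it averaged 33.2 ± 15.01 FPKM, a log2 fold change of 4.79 ± 0.329 against day 0 (edgeR adjusted p 1.31e-05), or 27.7-fold with a 95% interval of 16.5 to 46.3. Against day 3 it fell by 1.77 on the log2 scale (SE 0.277, edgeR adjusted p 0.00189). Without day 21 replicate 2 these last changes were 4.36 and -2.18, and both still passed.

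The RefSeq promoter of Lgals3 (GRCm38.p6, 250 bases before and 50 from the annotated start, plus strand) is shown for its only matches among 4 motifs searched on both strands, AANNGAAA of interferon regulatory factors, TGANTCA of AP-1, TTCNNNGAA of STAT factors and GGGCGG, the GC box bound by Sp1. The motifs were chosen after the promoters had been read. Both matches were GC boxes, which 35.7% of 32851 promoter windows of the same 300 bases held, and capitals mark the match:
Lgals3, GC box on the minus strand, first base at -7, chr14:47373842-47373869: gggatgctgccCCGCCCtgggagggcgg
Lgals3, GC box on the plus strand, first base at 5, chr14:47373853-47373880: ccgccctgggaGGGCGGgcccggggaaa
The printed stretches overlap, but the matches do not overlap each other.

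The balance of Lgals1 and Lgals3, the most abundant pair at day 3, differed between day 0 and the later days. Within a library the ratio of Lgals1 to Lgals3 FPKM does not depend on library scaling. It was 70.3, 72.2 and 65.5 at day 0, 5.18, 4.81 and 4.30 at day 3, and 4.62, 4.48 and 3.62 at day 21. The day 3 and day 21 ranges overlapped, and both lay far below day 0. On the log2 scale the ratio of Lgals3 to Lgals1 was higher by 3.87 at day 3 and by 4.04 at day 21 than at day 0 (exact permutation test, two-sided, p 0.1 for each, the smallest that 3 against 3 libraries allow). Day 21 was higher than day 3 by 0.17 (exact permutation p 0.3). Adjusted over these 3 comparisons the exact p-values were 0.15, 0.15 and 0.3. Day 21 replicate 2, high in both genes, had a ratio between those of the other day 21 libraries.

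**Figure D2:**
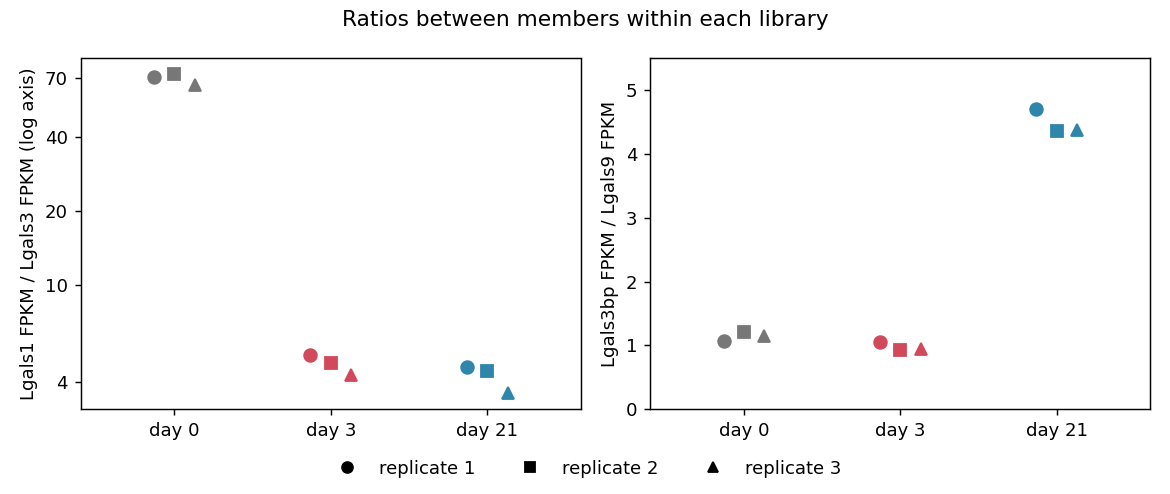
Ratio of Lgals1 to Lgals3 FPKM (left, log axis) and of Lgals3bp to Lgals9 FPKM (right, linear axis from 0) in each library, with symbols for the replicates. The left ratio is 65.5 or more at day 0 and 5.18 or less at day 3 and day 21, and the right ratio is at 0.925 to 1.22 at day 0 and day 3 and at 4.37 to 4.71 at day 21.

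Lgals9 encodes galectin-9, a tandem-repeat galectin with a pair of linked recognition domains that binds TIM-3, a receptor on T cells and other cells (ENSMUSG00000001123, chromosome 11, 78962974 to 78984946, minus strand). It was the member with the tightest replicates at day 0 and day 3. Its level was 4.85, 5.16 and 5.12 FPKM at day 0, 22.5, 23.5 and 22.4 FPKM at day 3, and 11.7, 14.1 and 11.98 FPKM at day 21. The 3 days did not overlap. It averaged 22.8 ± 0.573 FPKM at day 3 against 5.05 ± 0.169 FPKM at day 0, with a log2 fold change of 2.12 ± 0.107 (edgeR adjusted p 7.00e-07). At day 21 the mean was 12.6 ± 1.28 FPKM and the log2 fold change against day 0 was 1.19 ± 0.105 (edgeR adjusted p 5.55e-05). Between the later days it fell by 0.93 on the log2 scale at day 21 relative to day 3 (SE 0.103, edgeR adjusted p 0.000273).

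Lgals8 encodes galectin-8, the other tandem-repeat member, known in human cells to bind glycans on ruptured endosomes and lysosomes (ENSMUSG00000057554, chromosome 13, 12439415 to 12464944, minus strand). Its level was 6.05, 5.70 and 5.46 FPKM at day 0, 6.50, 6.08 and 5.29 FPKM at day 3, and 6.92, 5.79 and 7.30 FPKM at day 21, and all 3 groups overlapped. The log2 fold change was 0.00 ± 0.129 at day 3 against day 0 (edgeR adjusted p 0.989) and 0.10 ± 0.129 at day 21 against day 0 (edgeR adjusted p 0.626). The 95% intervals ran from 0.818-fold to 1.23-fold and from 0.873-fold to 1.31-fold, so a change within those bounds was not detectable at the precision of these libraries. Between day 21 and day 3 the log2 fold change was 0.09 ± 0.129 (edgeR adjusted p 0.639). Of its 3688 exonic bases 155, or 4.2%, are shared with Heatr1 on the opposite strand, and no source used here states whether counting used strand.

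Lgals3bp encodes a secreted glycoprotein of the scavenger receptor cysteine-rich family that binds galectin-3, galectin-1 and matrix proteins and is not itself a galectin (ENSMUSG00000033880, chromosome 11, 118392751 to 118402092, minus strand). It was the only member called higher at day 21 than at day 3. Lgals3bp was at 5.15, 6.28 and 5.84 FPKM at day 0, at 23.6, 21.7 and 21.3 FPKM at day 3, and at 55.2, 61.4 and 52.5 FPKM at day 21. The days did not overlap and followed each other upward. It averaged 22.2 ± 1.24 FPKM at day 3 against 5.76 ± 0.569 FPKM at day 0, a log2 fold change of 1.89 ± 0.121 (edgeR adjusted p 2.68e-06).

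At day 21 Lgals3bp averaged 56.3 ± 4.56 FPKM (SD, n = 3). Its log2 fold change was 3.16 ± 0.127 against day 0 (edgeR adjusted p 8.28e-07), or 8.96-fold with a 95% interval of 7.35 to 10.9. Against day 3 it was 1.27 ± 0.118 (edgeR adjusted p 0.000104), and 97.8% of tested genes had a lower log2 fold change there. Lgals9 and Lgals3bp had like levels at day 0 and day 3 and parted at day 21. The ratio of Lgals3bp to Lgals9 FPKM was 1.06, 1.22 and 1.14 at day 0, 1.05, 0.925 and 0.948 at day 3, and 4.71, 4.37 and 4.38 at day 21. This ratio was taken up after the values had been seen and is given without a test.

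**Figure D3:**
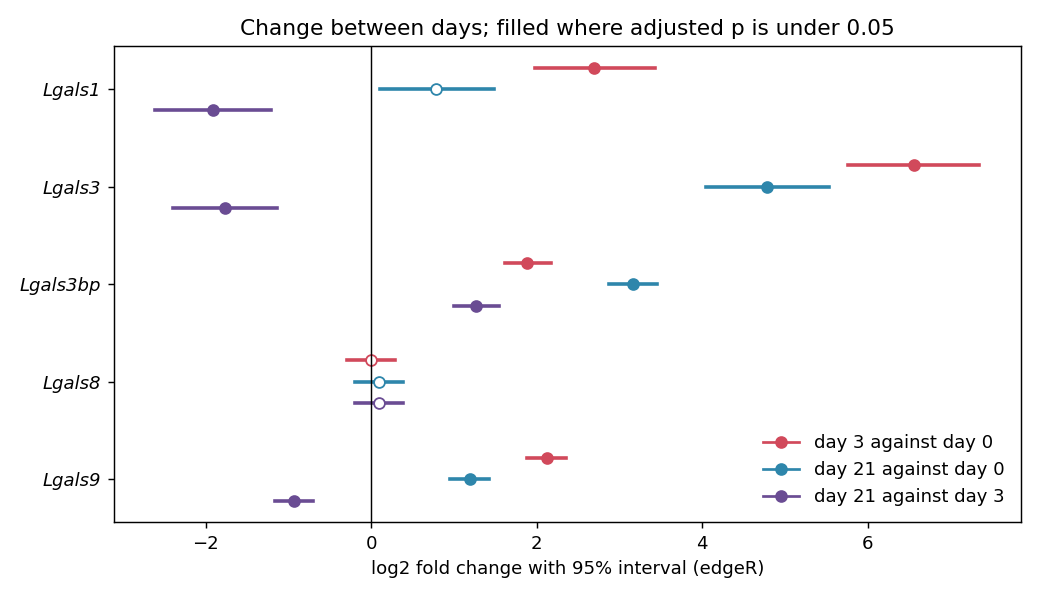
Log2 fold change of each member in the 3 comparisons, as points with 95% intervals from edgeR; filled points have an adjusted p under 0.05. Lgals3 is farthest to the right at day 3 (6.56), Lgals3bp is the only gene with a filled point right of 0 for day 21 against day 3 (1.27), and the Lgals8 intervals cover 0.

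Lgals3bp and Lgals9 are both known as interferon-inducible genes, and a part of interferon in their changes was not tested. Their RefSeq promoter windows were searched for the same 4 motifs, chosen after the promoters had been read. Only AANNGAAA matched, at 1 position in Lgals3bp and at 3 positions in Lgals9, and 23.9% of all windows held it. The stretches are given in the direction of the gene, on the minus strand of chromosome 11 (GRCm38.p6), with the match in capitals:
Lgals3bp, first base at -14, chr11:118401955-118401984: tgttttctgaaAATCGAAActaggtgaggt
Lgals9, first base at -151, chr11:78985057-78985086: cagagcacaggAAGGGAAAgtcaaggcaga
Lgals9, first base at -55, reverse match, chr11:78984961-78984990: ctgacatcagcTTTCTTTTtctctagacac
Lgals9, first base at 16, reverse match, chr11:78984891-78984920: aatagctgtggTTTCTGTTtcctagctcag
None of these matches overlaps a match of another motif. A match describes the letters only, and the window of Lgals8 held none of the 4 motifs. Promoter windows were matched for 4 of 5 members, and that of Lgals1 was not used here.

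Taking the 5 genes by level per length, the order at day 0 was Lgals1, Lgals3bp, Lgals8, Lgals9 and Lgals3. Lgals3bp and Lgals8 overlapped in range there. At day 3 the order was Lgals1, Lgals3, Lgals9, Lgals3bp and Lgals8, with Lgals9 and Lgals3bp overlapping. At day 21 it was Lgals1, Lgals3bp, Lgals3, Lgals9 and Lgals8, with no neighbours overlapping. Lgals3 was thus the least abundant member at day 0 and the second at day 3.

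The summed FPKM of the 5 genes was 78.8 to 115 at day 0, 638 to 685 at day 3 and 189 to 358 at day 21. Lgals1 made up 80.4 ± 3.97% of it at day 0, 76.2 ± 0.952% at day 3 and 54.9 ± 7.52% at day 21 (SD, n = 3 each). Lgals3 made up 1.16 ± 0.0807%, 16.1 ± 1.33% and 13 ± 1.37% on the same days. Lgals3bp made up 6.46 ± 1.80%, 3.35 ± 0.219% and 23.9 ± 5.84%. The family was thus mostly Lgals1 at day 0, Lgals1 with Lgals3 at day 3, and Lgals1 with Lgals3bp and Lgals3 at day 21.

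**Figure D4:**
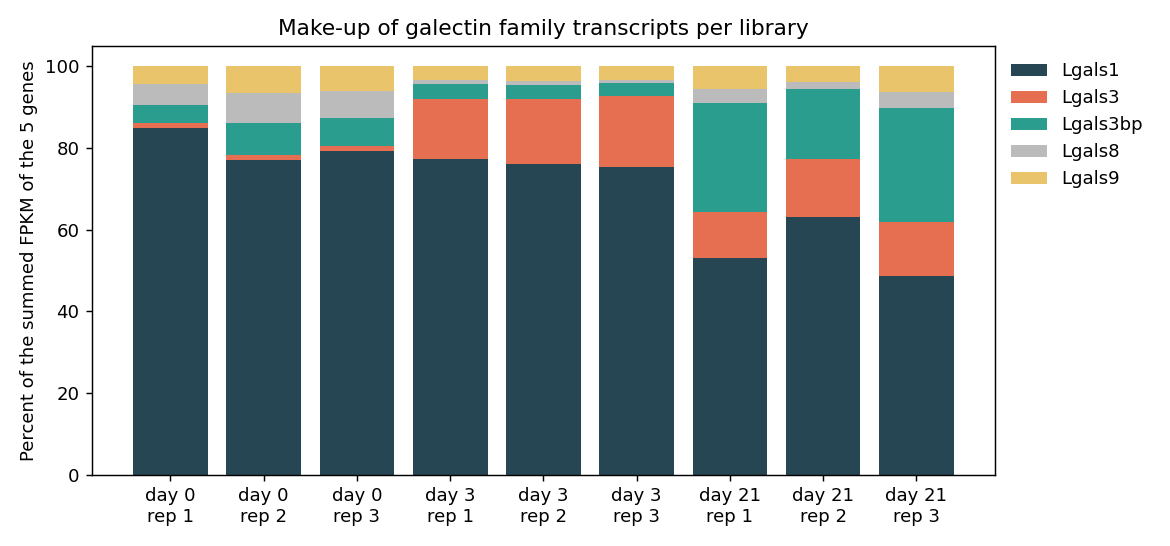
Share of each member in the summed FPKM of the 5 genes, in percent, as stacked bars for each library in order of day. Lgals3 takes a visible share from day 3 on (16.1% on average) and Lgals3bp from day 21 (23.9%), and day 21 replicate 2 holds more Lgals1 than the other day 21 libraries.

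Many cell type marker lists also changed after injury, and their part in the changes of the members was not tested. In bulk tissue a change in the number of cells of a type and one in RNA per cell cannot be told apart. Not all lists rose. At day 3 against day 0, 10 of 11 neuron markers were lower and none higher, and of 10 oligodendrocyte markers 6 were lower and 1 higher. Over all genes 19.5% were lower and 24.8% higher. The sums of oligodendrocyte precursor and ependymal markers were then 0.995 and 0.865 times those of day 0. Of 13 monocyte and macrophage markers, all were called higher at day 3 and 12 at day 21 against day 0. Their summed FPKM was 30.4 to 33.0 at day 0, 799 to 813 at day 3 and 483 to 699 at day 21, or 25.4-fold higher at day 3 and 17.5-fold higher at day 21 by the means. In the same measure Lgals3 was 98.6-fold and 30.6-fold higher. Most of the macrophage sum on the later days was Lyz2, which averaged 468.5 FPKM at day 3 and 415.5 FPKM at day 21. By edgeR the single macrophage markers ranged from 5.97-fold (Itgam) to 400-fold (Arg1) higher at day 3 than at day 0. Of 10 microglia markers 8 were higher at day 3 and 7 at day 21, with sums of 89.7 to 107 FPKM at day 0, 325 to 359 at day 3 and 303 to 381 at day 21.

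Markers of cells known for galectin-1 moved too. All 10 fibroblast markers were higher on both later days, with sums of 47.2 to 49.5 FPKM at day 0, 578 to 582 at day 3 and 303 to 378 at day 21. Of 10 Schwann cell markers 8 were higher on each later day, with sums of 395 to 587 FPKM at day 0, 985 to 1003 at day 3 and 611 to 628 at day 21. Much of the Schwann sum was Mbp, also a listed oligodendrocyte marker, which averaged 255, 257 and 234 FPKM on these days with no change called. Of 11 peripheral sensory neuron markers 9 were higher at day 3 and 6 at day 21, with sums of 58.1 to 68.9 FPKM at day 0, 123 to 127 at day 3 and 60.9 to 102 at day 21. Most of that sum by the means was Prph, at 47.6, 69.5 and 48.4 FPKM with no change called. The median log2 fold change of the list was 3.39 at day 3 and 1.76 at day 21 against day 0. By edgeR the single markers ranged from 1.34-fold (Calca, no call) to 1343-fold (Scn10a) higher at day 3. Scn10a averaged 0.00546 FPKM at day 0 and 9.09 FPKM at day 3. Of 10 astrocyte markers 5 were higher and 3 lower at day 3 against day 0 (median log2 fold change 0.22), and 3 higher and none lower at day 21 (median -0.05). Their sums were 1289 to 1328 FPKM at day 0, 2688 to 2739 at day 3 and 2348 to 2698 at day 21, most of it Gfap, the filament protein of reactive astrocytes, which averaged 553, 2012 and 1686 FPKM on these days.

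The neutrophil and lymphocyte lists had higher sums at day 21 than at day 3. Of 10 neutrophil markers 8 were higher at day 3 and 10 at day 21 against day 0, with sums of 11.2 to 16.7 FPKM at day 0 and 50.3 to 56.3 at day 3. At day 21 the sums were 66.5, 115 and 58.2 FPKM, the highest in replicate 2. Against day 3, 2 of the 10 were called higher at day 21 and 8 had no call, where 11.7% of all genes were called higher. The 9 lymphocyte markers were under the count filter and summed to 0.0939 to 0.485 FPKM at day 0, 0.579 to 0.610 at day 3 and 1.76 to 3.53 at day 21.

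Endothelial markers had sums of 70.05 to 84.2 FPKM at day 0, 206 to 215 at day 3 and 74.0 to 95.5 at day 21, with 8 of 10 higher at day 3 and none at day 21. All 10 skeletal muscle markers were higher at day 21 than at day 0, with sums of 15.4 to 19.7 FPKM at day 0, 8.06 to 8.27 at day 3 and 117 to 202 at day 21. Among the cell type marker lists the sensory neuron gene Mrgprd and the lymphocyte genes Cd3e, Cd3g, Cd3d and Klrb1c, all at day 0, were the markers at 0 counts in all libraries of a group. In day 21 replicate 2, the library high in Lgals1 and Lgals3, the sums were 2.92 times the mean of the other day 21 libraries for erythroid, 1.85 times for neutrophil, 1.84 times for lymphocyte, 1.67 times for skeletal muscle, 1.66 times for sensory neuron and 1.45 times for macrophage markers. For all other marker lists the ratio was 1.36 or less, down to 0.974 for Schwann cells.

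**Figure D5:**
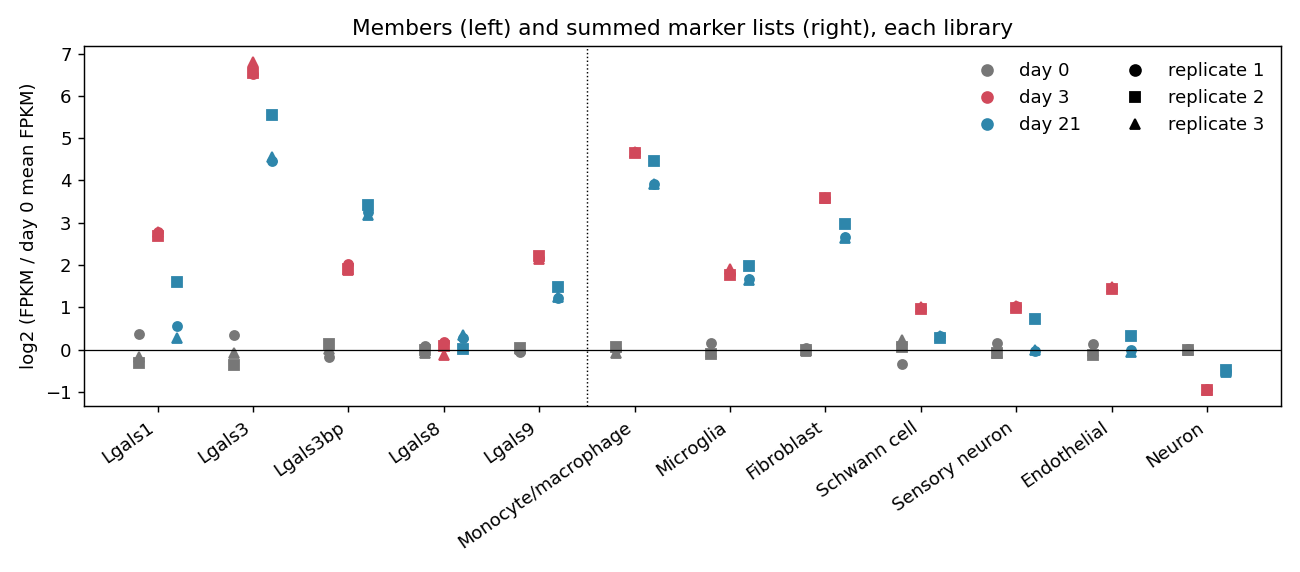
Log2 ratio of each library's FPKM to the day 0 mean, for the 5 members and for the summed FPKM of 7 marker lists; colours give the day and symbols the replicate. Lgals3 lies above the macrophage list at day 3, and the neuron list lies below 0 on both later days. Among the items plotted, Lgals3bp is the only one above 0 whose day 21 libraries all lie above its day 3 libraries. The neutrophil, lymphocyte, skeletal muscle and ependymal lists, not plotted, also have higher sums in all day 21 libraries than in any day 3 library.

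Other galectin genes averaged 2.11 FPKM or less on each day, except Lgalsl. Of 7 listed, Lgals6 was not analysed here, and Lgals7 and Lgals12 were under the count filter. Of the 4 tested, 1 was called higher at day 3 against day 0, where 24.8% of all genes were, and none at day 21. Without day 21 replicate 2 the day 3 count was 2, and 1 was lower at day 21 than at day 3. Over all genes 5354 were then higher in the first comparison and 4305 lower in the second, in place of 4090 and 2657. With all 9 libraries the gene called higher at day 3 against day 0 was Lgals4, a tandem-repeat galectin of the gut epithelium. Lgals4 was at 1.25 FPKM at day 3 against 0.626 FPKM at day 0 (log2 fold change 0.95 ± 0.258, edgeR adjusted p 0.0154). Its call was lost without day 0 replicate 1 (edgeR adjusted p 0.0713) or day 3 replicate 3 (0.0605). Lgalsl, a galectin-like gene, was at 8.19, 7.92 and 7.47 FPKM at day 0, 8.19, 9.70 and 8.24 FPKM at day 3, and 8.90, 6.79 and 9.64 FPKM at day 21, with no change called.

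Glycoproteins described as galectin counter-receptors were more often called higher than lower after injury. Among them Itgam is also a listed macrophage marker and Kdr a listed endothelial marker, and the part of cell types was not tested. Of 23 tested, 14 were higher and 1 lower at day 3 against day 0, with a median log2 fold change of 1.75, where the median of all tested genes was 0.008 and 24.8% of all genes were called higher and 19.5% lower. Among those called and at 1 FPKM or more in either group, the largest changes were in Itga5, the α5 integrin chain (24.7 FPKM at day 3 against 0.766 FPKM at day 0, log2 fold change 4.96 ± 0.142, edgeR adjusted p 6.22e-08), and Anpep, aminopeptidase N (7.78 against 0.888 FPKM, log2 fold change 3.08 ± 0.11, edgeR adjusted p 1.18e-07). By day 21, 13 were higher and 3 lower than at day 0, with a median of 0.99, where 17.9% of all genes were higher and 11.3% lower and the median was 0.018. At 1 FPKM or more the largest changes were in Trem2, a lipid receptor of microglia that galectin-3 binds (19.9 FPKM at day 21 against 1.54 FPKM at day 0, log2 fold change 3.56 ± 0.238, edgeR adjusted p 1.12e-05), and in Lag3, an inhibitory receptor best known from T cells (16.9 against 1.90 FPKM, log2 fold change 3.02 ± 0.216, edgeR adjusted p 1.65e-05). Under 1 FPKM, Tlr4, Spn and Ptprc had log2 fold changes of 3.62, 3.28 and 3.21 at day 3, all above Anpep, and Ptprc had 3.46 at day 21, above Lag3; these 3 were named after their values were seen. Without day 21 replicate 2, 4 counter-receptors were lower at day 3 and 5 at day 21. The genes lower over all genes were then 4891 and 3748, in place of 3217 and 1864.

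Relative to day 3, 1 of 23 counter-receptors tested was higher at day 21, Lag3 (log2 fold change 1.75 ± 0.203, edgeR adjusted p 0.000366), and 9 were lower. Over all genes 11.7% were higher and 16.1% lower. Without day 21 replicate 2 the counter-receptor counts were 4 and 11. The counts over all genes were then 3941 and 4305, in place of 1928 and 2657. Itga5 fell most, by 2.66 on the log2 scale (SE 0.125, edgeR adjusted p 2.85e-06). The T cell receptor chains Cd3e, Cd3g and Cd3d had no count at day 0 and averaged at most 0.490 FPKM at day 21.

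Enzymes that build or cap the glycans that galectins bind were higher at day 3 in part. Of 17 tested, 8 were higher and 2 lower than at day 0, with a median log2 fold change of 0.60, beside 24.8% and 19.5% of all genes. B4galt1, which adds the galactose of lactosamine, was at 14.4 FPKM at day 3 against 1.35 FPKM at day 0 (log2 fold change 3.36 ± 0.149, edgeR adjusted p 3.67e-07). Gcnt1, which starts core 2 branches of O-glycans, was at 1.13 against 0.120 FPKM (log2 fold change 3.17 ± 0.219, edgeR adjusted p 4.49e-06). By day 21, 5 were higher and 2 lower than at day 0 (median 0.24), beside 17.9% and 11.3% of all genes. The 5 higher ones included B4galt1, at 4.97 FPKM at day 21 (log2 fold change 1.76 ± 0.144, edgeR adjusted p 3.64e-05). Without day 21 replicate 2 the list counts were 8 and 3. The counts over all genes were then 4207 and 3748, in place of 2949 and 1864. Relative to day 3, none was higher at day 21 by edgeR and 8 were lower, beside 11.7% and 16.1% of all genes. The higher count was 1 without day 0 replicate 1 or without day 21 replicate 2. Without the latter, 3941 genes were higher over all genes, in place of 1928. The largest change was in the Golgi mannosidase Man2a1, at 2.01 FPKM at day 21 against 6.64 FPKM at day 3 (log2 fold change -1.79 ± 0.192, edgeR adjusted p 0.000242).

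Galectin-3, galectin-8 and galectin-9 are linked with the response to damaged lysosomes. No result about the list of its genes is drawn from the counts below. Of 23 tested, 4 were higher and 5 lower at day 3 against day 0 (median -0.11), beside 24.8% and 19.5% of all genes, or 8 lower without day 21 replicate 2 and 3 without day 0 replicate 1. Lamp2, a lysosomal membrane glycoprotein, was at 25.0 FPKM at day 3 against 10.4 FPKM at day 0 (log2 fold change 1.21 ± 0.145, edgeR adjusted p 0.000145), and Fbxo27, which tags glycoproteins of damaged lysosomes, at 1.84 against 3.01 FPKM (log2 fold change -0.76 ± 0.111, edgeR adjusted p 0.000473). By day 21, 2 were higher than at day 0, among them Lamp2 (log2 fold change 0.76 ± 0.143, edgeR adjusted p 0.00437), and 6 were lower (median -0.08). Over all genes 17.9% were higher and 11.3% lower. The 6 lower genes became 2 without day 0 replicate 1 and 9 without day 21 replicate 2. Relative to day 3, 2 were higher and 2 lower at day 21 (median -0.09), beside 11.7% and 16.1% of all genes. The lower ones were 7 without day 21 replicate 2 and 1 without day 0 replicate 1. Without day 21 replicate 2 the genes lower over all genes were 4891, 3748 and 4305 in these 3 comparisons, in place of 3217, 1864 and 2657.

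The genes with the nearest profiles were found as the smallest root mean square difference in centred log2 CPM over the 9 libraries, among 7335 genes with at least 5 FPKM on average on some day. For Lgals1 they were Tmem88 (0.196), Pmp2, a myelin lipid-binding protein (0.199), and Anxa2, an annexin (0.231). For Lgals3 they were Cd5l, a macrophage secreted protein (0.309), Apoc2, an apolipoprotein (0.338), and Cyp4f18 (0.467), which averaged 0.00929, 0 and 0.0237 FPKM at day 0. The values of Pmp2 and Apoc2 are uncertain, since 86.9% and 79.5% of their exonic bases are shared with another annotated gene. For Lgals3bp they were Lag3 (0.321), the complement protein C3 (0.374) and Cd74, the MHC class II invariant chain (0.375). C3 averaged 17.1, 39.2 and 97.4 FPKM at days 0, 3 and 21.

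The nearest genes of Lgals9 were Galns, a lysosomal sulfatase (0.0970), Dynlt1f, a member of a family of near-identical copies whose counts are uncertain (0.0990), and Ppp1r18 (0.101). For Lgals8 they were Kpna4, an importin (0.0770), Rhoq (0.0850) and Cd47 (0.0860), with profiles as flat as its own. The nearest genes depended on the setting. Without day 21 replicate 2, 2 of 3 stayed nearest for Lgals3 and for Lgals3bp and 0 of 3 for the other members. On log2(FPKM + 1), 0 of 3 stayed for Lgals3 and for Lgals3bp, 1 of 3 for Lgals1 and for Lgals9, and 2 of 3 for Lgals8.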

How the data were processed

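Polyadenylated RNA was sequenced from paired-end TruSeq libraries, per the labels' protocols. The submitters' processing notes name HISAT2, StringTie and the human build GRCh38. The gene loci are those of mouse GRCm38: 27776 of the 34344 IDs found in GENCODE M21 have identical coordinates there. The authors deposited 1 whole-number count per gene and library, not normalized, and 1 FPKM value, per the file headers. Counting settings: not given in the sources used here.

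Counts were tested with edgeR 4.0.16 in R 4.3.3 (TMM scaling, default expression filter, robust quasi-likelihood fit, all 9 libraries in 1 fit with 6 residual degrees of freedom). Calls needed an adjusted p (Benjamini-Hochberg over 16494 genes, two-sided test) under 0.05. The SE is the log2 fold change divided by the square root of F. FPKM values are as deposited, as mean ± SD. The script was tested on simulated data. The members and gene lists were chosen with earlier results of these data known. Named beyond the members are the 3 genes nearest in profile to each and, of up to 4 called genes per list and comparison with the largest changes at 1 FPKM or more, those with the largest. Alternatives were DESeq2 1.42.0, limma 3.58.1 on log2 FPKM and with sample weights, other scalings and filters, a block for replicate number, and leaving out every library in turn.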

Additional observations from a re-analysis of the deposited data

Results flagged for a closer look

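For 4 of 5 members the change against day 0 differed between the later days. The test is that of day 21 against day 3 by edgeR already given above (adjusted p under 0.05), where 27.8% of all genes were called. The share of all genes with no overlap between these days is not given here. The day 21 change was below the day 3 change by 1.91 log2 units for Lgals1 (difference -1.91), by 1.77 for Lgals3 (difference -1.77) and by 0.93 for Lgals9 (difference -0.93), each lower in 3 of 3 day 21 libraries than in any day 3 library. For Lgals3bp the day 21 change was above the day 3 change by 1.27 log2 units, higher in 3 of 3 day 21 libraries than in any day 3 library.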

How the results depend on the processing

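Member and list counts under the alternatives and the nearest genes were tried after seeing the data. Of 345 alternative values of the 15 member results, 334 kept the direction and the side of the threshold. The others belong to Lgals1 at day 21 and Lgals8 at day 3, both against day 0, and the cause was not tested. Lgals1 passed with DESeq2 (log2 fold change 0.80), with a filter of 5 FPKM in 3 libraries (0.93) and with sample weights (0.53), and leaving out each library gave 0.32 to 1.03. Lgals8, not called in any, changed sign with DESeq2 and median-of-ratios scaling (-0.01 each), upper-quartile scaling (-0.02) and no count filter (-0.09), and ranged from -0.06 to 0.08 with a library left out. Genes called at day 3 against day 0 were 1983 higher and 1775 lower with the 5 FPKM filter, which tests fewer genes, and 5215 lower with sample weights. At day 21 against day 0 they were 1395 higher and 691 lower with that filter. The lower ones were 1076 with library totals only, 801 with only the groups compared, 3946 with sample weights, and 1172, 1107 and 1233 with limma on log2(FPKM + 1), log2(FPKM + 0.1) and log2(FPKM + 5). At day 21 against day 3 they were 1243 higher and 1262 lower with the filter, and 4419 and 4832 with sample weights. With a library left out, the counts ranged from 3504 to 5354 higher and 2361 to 4891 lower at day 3 against day 0, from 2262 to 4207 higher and 1011 to 3748 lower at day 21 against day 0, and from 1006 to 3941 higher and 1887 to 4305 lower at day 21 against day 3. The highest of each came without day 21 replicate 2. The replicate number as a block gave 3775 higher and 2814 lower genes at day 3 against day 0, 2516 and 1318 at day 21 against day 0, and 1388 and 2252 at day 21 against day 3, and changed no member's call. Same-numbered libraries deviated together at correlations of -0.15 to 0.11, with 1 of 9 pairs above 0.1 and 1 of 9 libraries closest to its own number. No link by number was thus seen. With 3 libraries a group these values cannot exclude that same-numbered libraries shared a batch. Scaling by library totals shifted the median log2 fold change of all genes by 0.124 at day 21 against day 0. At day 0 Lgals3 rested on 37 to 93 counts, which limits the precision of its fold.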

Other observations

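Lgals7, the galectin of stratified epithelium, lay under the count filter and had 0, 1 and 0 counts at day 0, 6, 4 and 2 counts at day 3, and 2, 0 and 0 counts at day 21. Grifin, a galectin-related gene of the lens, had 16, 6 and 11 counts at day 0, 17, 23 and 23 at day 3, and 8, 23 and 8 at day 21. It was highest of its day in day 21 replicate 2, as were Lgals1, Lgals3, Lgals3bp, Lgals9 and Lgals4. Lgals8 and Lgalsl were lowest of their day there. Lgals2, a prototype galectin, was at 0.706, 1.29 and 0.192 FPKM at day 0, 1.69, 1.80 and 1.48 FPKM at day 3, and 1.61, 1.40 and 0.830 FPKM at day 21, with no change called.

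Lgals3 per 100 FPKM of summed monocyte and macrophage markers was 4.33, 2.55 and 3.35 FPKM at day 0, 12.2, 12.6 and 14.8 FPKM at day 3, and 4.91, 7.22 and 5.24 FPKM at day 21. Lgals1 per 100 FPKM of summed fibroblast markers was 197, 126 and 141 FPKM at day 0, 89.0, 83.5 and 89.2 FPKM at day 3, and 35.9, 59.8 and 30.2 FPKM at day 21. Most of the macrophage sum on the later days was Lyz2. Both ratios were formed after the data had been seen and are given without a test.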
